A study of Mus musculus with 72 samples.

Results

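Described here by symbol are the immediate early genes Fos, Fosb, Jun, Junb, Egr1, Ier2, Ier3, Atf3, Btg2 and Dusp1, which are 10 of the 51826 genes counted in this series. The series labeled new RNA in E14TG2a cells, a line of mouse embryonic stem cells, with 4-thiouridine (4sU), a uridine analog that appears in the sequence as C at T positions after alkylation (SLAM-seq), and sequenced polyadenylated RNA of whole cells and of their nuclear, cytosolic and membrane fractions. There were 72 libraries, 4 from each of 18 cultures: the labeling times were 15, 20 and 30 min in replicates 1 and 2, 20, 40, 60 and 120 min in the next pair (3 and 4), and 60 and 120 min in the last (5 and 6), so that each of the 36 groups of fraction, time and replicate pair held 2 libraries. The labels give 500 µM 4sU up to 40 min and 100 µM at 60 and 120 min, whereas the methods of the study place the 60 min samples of replicates 3 and 4 in a 500 µM series. The study left out samples labeled with 500 µM for longer than 60 min, by its methods the 120 min samples of this pair. Dose and replicate pair cannot be told apart at these times. Every culture grew in serum with LIF (leukemia inhibitory factor) and 2 kinase inhibitors, CHIR99021 and the MEK inhibitor PD0325901, was seeded the day before labeling and met cycloheximide, which blocks translation, in the ice-cold buffers of the harvest. No unlabeled culture and no stimulated culture was analyzed here, so the values are levels under MEK inhibition without an added stimulus. A response to 4sU or to handling cannot be told apart from them. The 120 min libraries of replicates 3 and 4, which the study set aside, entered the fits of level over time and between replicate pairs. They were also in the split of Btg2 into new and old RNA, the share percentiles, the whole-cell correlations, the depth and the marker sums. They were left out of the other main results, which rest on 64 libraries of 16 cultures.

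Immediate early genes are those whose transcription starts within minutes of a signal without new protein synthesis. Signals reach their promoters through the ERK kinases and serum response factor at CArG boxes, and through CREB at cyclic AMP response elements. Most of their mRNAs are decayed quickly, in part through AU-rich elements in the 3′ UTR, and blocking translation is known to raise them. Fos and Fosb pair with Jun and Junb into AP-1, a leucine zipper transcription factor. Egr1 is a zinc finger transcription factor, and Atf3 is a leucine zipper factor of the stress response. Btg2 is an antiproliferative protein that recruits deadenylases, Dusp1 is a phosphatase that switches off MAP kinases, and Ier3 is a glycoprotein with a transmembrane segment that acts in cell survival. Ier2 is a nuclear regulator of transcription.

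Libraries held 13185351 to 52975732 counted reads (median 21494524.5). Between 6.26% and 35.9% of the reads of a library fell on no gene or on more than 1, and this share was lower in the cytosol of replicates 3 and 4 (6.26% to 7.80%) than in the cytosol of replicates 1 and 2 (12.2% to 16.4%) or 5 and 6 (12.6% to 18.3%). The stem cell genes were high in whole cells, with a median of 1199 CPM (counts scaled to a common library total) for Pou5f1 and 256 for Sox2. The fibroblast gene Postn and the trophoblast gene Elf5 had medians of 0 and 0.0216 CPM. Some markers of other cell types were higher in whole cells. Thy1 had a median of 7.16 CPM (up to 11.1), Sox1 had 3.78 and Gata4 had 2.34, and Pax6 reached 16.9 CPM. The 13 markers of other cell types summed to 16.7 to 21.9 CPM in replicates 1 and 2, 21.998 to 30.0 in replicates 3 and 4 and 16.1 to 23.5 in replicates 5 and 6; their part in the results was not tested. As a check of the fractions, the nuclear RNA Malat1 had a median of 915 CPM in the nucleus and 116 in the cytosol. Hspa5, which encodes an ER chaperone, had 2097 CPM in the membrane fraction and 79.9 in the cytosol. Not all checks were this clear. Hspa5 had 713 CPM in the nucleus, and the membrane checks Calr and Tfrc had 541 and 350 there against 135 and 85.1 in the cytosol. The nuclear RNA Neat1 had 202 CPM in the nucleus and 117 in the cytosol. Of the cytosolic checks, Gapdh had 3228 CPM in the cytosol and 2015 in the nucleus, and Eno1 had 989 and 981. The whole-cell libraries of replicate 6 went against their labels. In whole cells of replicate 6, the median labeled share over all genes was 0.378 in the library labelled 60 min and 0.175 in the library labelled 120 min, while replicate 5 had 0.220 and 0.391 and the nucleus, cytosol and membrane fraction of replicate 6 rose from 60 to 120 min. Whole-cell results that use the labeling time of these libraries are given with and without replicate 6. The counts of calls from 60 to 120 min are not, since 1 library would be left at each time.

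The AU-rich elements are shown first, since the turnover of the members is the main measurement below. The nonamer TTATTTATT is a strong form of this element, and it was present in the 3′ UTR of 2 members, Fos and Dusp1. Each line gives 29 bases around it, 5′ to 3′ on the strand of the gene in GRCm38, with the nonamer in capitals.
Fos, chr12:85477103-85477131, plus strand: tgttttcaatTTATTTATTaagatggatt
Dusp1, chr17:26506159-26506187, minus strand: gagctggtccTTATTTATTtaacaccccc
Dusp1, chr17:26505870-26505898, minus strand: gtttttacctTTATTTATTtttgtgtagg
Of 17125 coding genes with a labeling value and a 3′ UTR of at least 100 bases, 1348 (7.87%) hold the nonamer. The pentamer ATTTA, the core of these elements and part of the nonamer, was found in the 3′ UTR of 9 of 10 members and of 68.6% of those genes. Ier3 had the most per length, 5 pentamers in 613 bases, which is 8.16 per kb against a median of 1.31 per kb over those genes (percentile 98.5). Btg2 had 5 in 2199 bases, Dusp1 and Fos had 4 each in 690 and 815 bases, Jun had 4 in 1233 bases, and Ier2 had 0 in 755 bases. Windows of 30 bases from Ier3, Btg2 and Jun, with the pentamers in capitals, show how members without the nonamer carry them.
Ier3, chr17:35822484-35822513, plus strand: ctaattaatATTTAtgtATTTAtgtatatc
Btg2, chr1:134076017-134076046, minus strand: aATTTAtttgtagatgtgtgcaatATTTAc
Jun, chr4:95049207-95049236, minus strand: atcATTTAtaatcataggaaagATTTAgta
A match is a description of the letters and not of a working element.

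The members spanned 3 orders of level. To compare genes, counts were divided by exon length and scaled to a common total, and on this scale the whole-cell mean over 16 cultures was 186 ± 64.1 for Ier2 (SD, n = 16), far above Btg2 at 48.3 ± 16.9. Junb (13.7 ± 4.08), Ier3 (12.5 ± 4.11), Dusp1 (12.3 ± 3.76), Atf3 (7.403 ± 2.54) and Jun (5.26 ± 2.53) followed. The AP-1 genes Fos and Fosb and the zinc finger gene Egr1 were near the floor, at 1.72 ± 0.464, 0.108 ± 0.0690 and 0.360 ± 0.305. Ier2, Btg2 and the next genes were apart by more than their SDs, and so was Fos from Jun above it and Egr1 below it. Junb, Ier3 and Dusp1 were within 1 SD of each other, as were Atf3 and Jun, and Egr1 and Fosb. In reads, Ier2 had 1087 to 3469 counts in a whole-cell library, Fos had 17 to 61, Egr1 had 2 to 31 and Fosb had 0 to 12. A Fosb count of 0 may come from counting error at this depth. The ± values above are SDs between the 16 cultures and not limits of counting error.

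**Figure D1:**
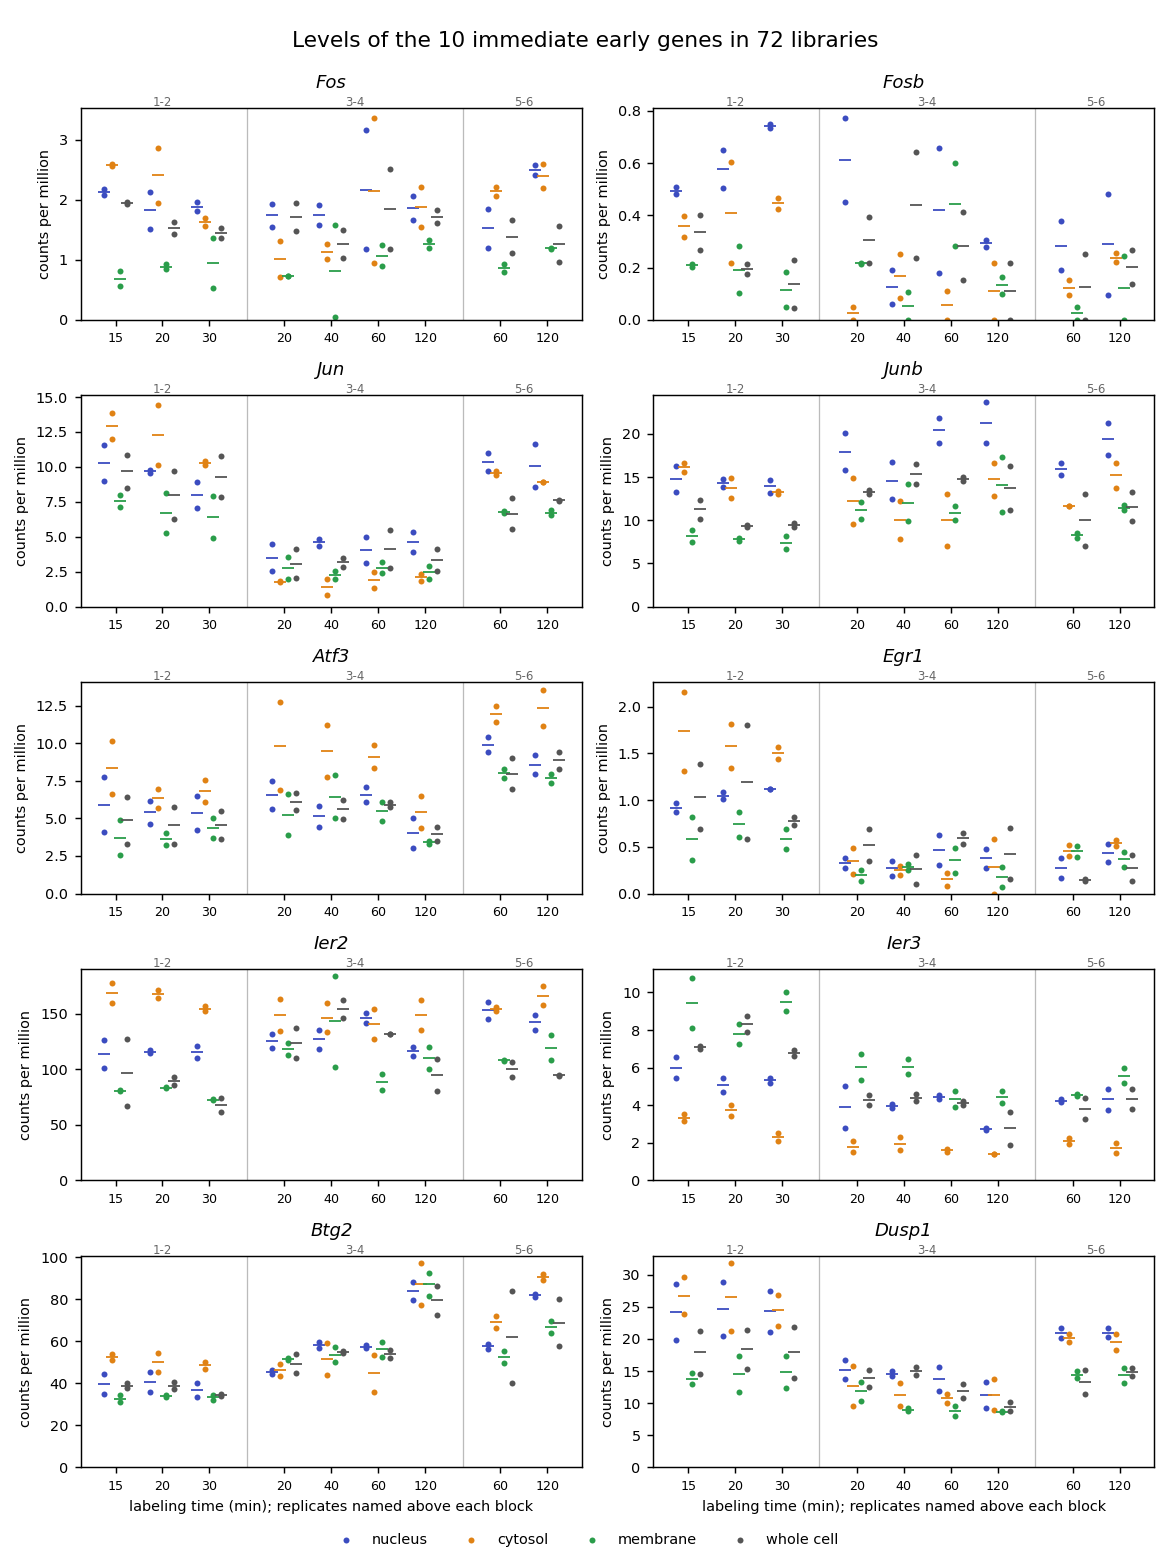
Level of each of the 10 members in every library, in CPM (vertical axis) by fraction and labeling time, with 1 point a library, colors for the fractions, blocks along the horizontal axis for the replicate pairs and bars for the means of the 2 libraries of a group. Ier2 lies near 100 to 160 in most libraries, Btg2 is higher at 120 min than at 20 min of replicates 3 and 4, and the Jun points of replicates 3 and 4 lie below those of the other pairs, most clearly in the cytosol.

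The first question was whether the members moved with labeling time, which would show in the level of a gene between cultures of the same replicate pair. Between 15 and 30 min (replicates 1 and 2), between 20 and 60 min (replicates 3 and 4) and between 60 and 120 min (replicates 5 and 6), 0 of 38 member-by-fraction values passed the test (edgeR quasi-likelihood test, Benjamini-Hochberg adjusted p under 0.05 and log2 fold change beyond 0.5), beside 0.0% of all genes tested in each fraction. At an unadjusted p under 0.05 there were 1, 4 and 2 of these values, and DESeq2 called 0 in each. Over all genes tested, the share under this unadjusted p was 0.730% to 1.49% by fraction in the first comparison, 2.93% to 19.4% in the second and 0.401% to 1.95% in the third. The 4 values of the second, from 20 to 60 min, were 2 of 10 in the nucleus beside 19.4%, 1 of 10 in the cytosol beside 6.16% and 1 of 9 in the membrane fraction beside 2.93%. Fosb was too low to be tested in the membrane fraction and whole cells. Of the values from 60 to 120 min, 9 were of whole cells, where the libraries of replicate 6 go against their labels. If these were exchanged, each time would mix both, so 0 calls there cannot show that whole-cell levels stayed. Between 20 and 120 min of replicates 3 and 4, 3 values passed, and all 3 were Btg2, beside 1.56% of nuclear, 0.497% of cytosolic, 0.0555% of membrane and 0.0712% of whole-cell genes that were higher.

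Btg2, the antiproliferative gene, was 2.06-fold higher at 120 min than at 20 min in the nucleus. In the nucleus it had 46.3 and 44.3 CPM at 20 min in replicates 3 and 4 and 88.2 and 79.7 CPM at 120 min, with 56.6 to 59.5 CPM at 40 and 60 min. In the cytosol it had 43.2 and 49.3 CPM at 20 min and 77.1 and 97.3 CPM at 120 min. The libraries of 120 min lay above all those of 20, 40 and 60 min in both fractions and in the membrane fraction, where they had 81.6 and 92.5 CPM against 52.0 and 51.1 at 20 min. The log2 fold change was 1.04 ± 0.12 (SE) in the nucleus (edgeR adjusted p = 0.000804) and 0.95 ± 0.14 in the cytosol (edgeR adjusted p = 0.00386). In the membrane fraction it was 0.82 ± 0.15 (edgeR adjusted p = 0.0425), a call that was lost without replicate 3 (0.92, adjusted p = 0.132) and without replicate 4 (0.72, adjusted p = 0.296). In whole cells, with 54.0 and 44.8 CPM at 20 min and 72.4 and 86.5 CPM at 120 min, the change of 0.76 ± 0.20 did not pass in edgeR (adjusted p = 0.149) and passed in DESeq2 (adjusted p = 0.0473).

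In replicates 5 and 6, Btg2 had 56.5 and 58.9 CPM in the nucleus at 60 min and 80.9 and 82.7 CPM at 120 min, and 66.4 and 71.95 CPM in the cytosol at 60 min and 89.0 and 92.0 CPM at 120 min. Both fractions had higher values at 120 min, but the changes of 0.43 ± 0.12 and 0.40 ± 0.14 did not pass (edgeR adjusted p = 1.0 in both). Whole cells gave 0.03 ± 0.20, which was 0.63 without replicate 6 and -0.54 without replicate 5, so that the sign rested on the libraries that go against their labels. The labels give a lower 4sU dose at 120 min than at 20 min. Where they hold, dose and time cannot be told apart in replicates 3 and 4. The mean conversion rate (of T to C in new RNA) at 120 min was 11.3% in the nucleus and 10.1% in the cytosol of this pair. In replicates 5 and 6, whose labels give the same dose at 120 min, it was 3.88% and 3.31%. The study excluded samples labeled at its higher dose for longer than 60 min, since genes changed in whole cells from 120 min on. The 120 min libraries of replicates 3 and 4 are those it set aside. By its methods this pair thus had the same dose at 20 and 120 min, against the labels. Whether dose or labeling changed Btg2 was not tested.

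The labeled share splits the Btg2 level into new and old RNA. In the cytosol of replicates 3 and 4, new Btg2 RNA was 6.65 ± 0.92 CPM at 20 min and 78.9 ± 7.5 CPM at 120 min (SD, n = 2), and old RNA was 39.6 ± 5.2 and 8.36 ± 6.7 CPM. In the nucleus, new RNA went from 11.1 to 71.2 CPM and old RNA from 34.2 to 12.8 CPM. New RNA at 120 min was therefore more than the whole level at 20 min, in both fractions. In the cytosol of replicates 5 and 6 new RNA was 44.6 CPM at 60 min and 90.5 at 120 min, and old RNA was 24.6 CPM at 60 min and near 0 at 120 min (-0.36 and 0.44 CPM, since a share may exceed 1).

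**Figure D2:**
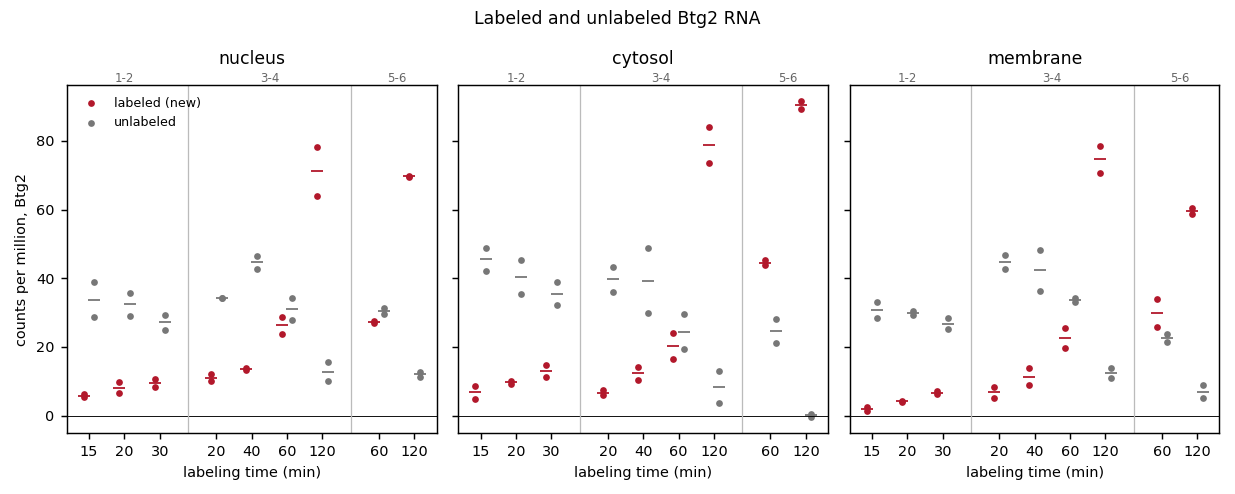
New (labeled) and old (unlabeled) Btg2 RNA in CPM against labeling time in min, in the nucleus, cytosol and membrane fraction, with 1 point a library. In the cytosol of replicates 3 and 4 new RNA rises from 6.65 to 78.9 CPM between 20 and 120 min while old RNA falls from 39.6 to 8.36 CPM.

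The surroundings of these genes are given by 2 lists, of 28 other early response genes and of 21 regulators of the MAPK, SRF and CREB routes. Of the early response genes 26 were tested in each fraction, and of the regulators 21. From 15 to 30 min, from 20 to 60 min and from 60 to 120 min, 0 genes of either list passed (edgeR). In whole cells from 60 to 120 min this rests on the libraries of replicate 6 that go against their labels. Between 20 and 120 min of replicates 3 and 4, 1 early response gene passed, the matricellular gene Ctgf in the nucleus (-0.94, edgeR adjusted p = 0.0497), and 1 regulator, Creb1, which encodes CREB, was lower in the nucleus (-0.97, edgeR adjusted p = 0.00871) and the cytosol (-1.09, edgeR adjusted p = 0.0165). Over all genes, 1.35% were lower in the nucleus and 0.547% in the cytosol, with 0.0415% for whole cells and 0.0185% for the membrane fraction. The median changes of the early response list in this comparison were 0.02, 0.07, -0.16 and -0.39 in nucleus, cytosol, membrane and whole cells, beside medians of 0.02, 0.00, -0.01 and -0.01 over all genes tested.

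Replicate pairs differed at the times they share, 20 min and 60 min, and Jun was the member that differed in all 4 fractions at 20 min. In the cytosol at 20 min Jun had 10.2 and 14.5 CPM in replicates 1 and 2 and 1.74 and 1.86 CPM in replicates 3 and 4. At 60 min it had 1.32 and 2.51 CPM in replicates 3 and 4 and 9.44 and 9.67 CPM in replicates 5 and 6. The cytosol of replicates 3 and 4 stayed between 0.811 and 2.51 CPM from 20 to 120 min. The log2 fold change of replicates 3 and 4 against 1 and 2 was -2.51 ± 0.28 in the cytosol (edgeR adjusted p = 1.09e-05), and that of replicates 5 and 6 against 3 and 4 was 2.05 ± 0.28 (edgeR adjusted p = 9.56e-05). In the nucleus at 20 min Jun had 9.59 and 9.75 CPM in replicates 1 and 2 and 2.54 and 4.45 CPM in replicates 3 and 4 (-1.51 ± 0.27, edgeR adjusted p = 0.00228), and at 60 min 3.15 and 4.96 CPM in replicates 3 and 4 and 9.71 and 10.97 CPM in replicates 5 and 6 (1.46 ± 0.28, edgeR adjusted p = 0.00204). The membrane fraction changed by -1.45 ± 0.30 (edgeR adjusted p = 0.00211) and 1.34 ± 0.30 (edgeR adjusted p = 0.00497), and whole cells by -1.33 ± 0.35 at 20 min (edgeR adjusted p = 0.0121). The nuclear and cytosolic calls remained without any 1 replicate. At 20 min the membrane call was lost without replicate 2 (-1.15) and the whole-cell call without replicate 2 (-1.06) and without replicate 4 (-0.89), and at 60 min the membrane call was lost without replicate 5 (1.35). Jun overlaps an antisense gene, Junos, and the strand setting of the counting is not given in the sources used here, so reads of the 2 cannot be told apart.

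At 20 min, 13 of 38 member-by-fraction values differed between replicates 3 and 4 and replicates 1 and 2, 12 of them lower and 1 higher. By fraction these were 5 of 10 lower in the cytosol beside 21.3% of all genes, 3 of 10 in the nucleus beside 7.16%, 2 of 9 in whole cells beside 11.9% and 2 of 9 in the membrane fraction beside 14.4%. The 1 higher was in the cytosol beside 18.1% of all genes, with 5.74%, 9.12% and 10.4% of genes higher in the nucleus, the membrane fraction and whole cells. In whole cells and the membrane fraction the members' shares were thus not far from the background. Egr1 was lower in the nucleus, cytosol and membrane fraction by 1.70 ± 0.53, 1.95 ± 0.66 and 2.09 ± 0.67 on the log2 scale (edgeR adjusted p = 0.0431, 0.0228 and 0.0304). These rest on few reads: in the cytosol 29 and 42 counts in replicates 1 and 2 and 5 and 10 in replicates 3 and 4, and each of the 3 calls was lost without replicate 1 and without replicate 2, those of the nucleus and membrane fraction also without replicate 3. Dusp1, the MAP kinase phosphatase, had 21.2 and 31.8 CPM in the cytosol of replicates 1 and 2 and 9.61 and 15.8 CPM in replicates 3 and 4. It fell by 0.81 ± 0.22 there and by 0.77 ± 0.21 in the nucleus (edgeR adjusted p = 0.00709 and 0.0230), and both calls were lost without replicate 2 (-0.54 and -0.56) and without replicate 3 (-0.56 and -0.64).

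Ier3, the survival gene, was lower in the cytosol (-0.80 ± 0.26, edgeR adjusted p = 0.0207; lost without replicate 1, 2 or 3) and in whole cells (-0.93 ± 0.27, edgeR adjusted p = 0.0180; lost without replicate 1, 3 or 4). Fosb had 13 and 5 counts in the cytosol of replicates 1 and 2 and 0 and 1 in replicates 3 and 4 (edgeR adjusted p = 0.0275), and no fold is given against such counts. The call was lost in DESeq2 and without replicate 2 or 3. The stress factor Atf3 was the 1 member that was higher, by 0.92 ± 0.31 in the cytosol (edgeR adjusted p = 0.0215), where replicate 3 had 12.8 CPM, replicate 4 had 6.89 and replicates 1 and 2 had 6.96 and 5.71; without replicate 3 the change was 0.31, and the call was also lost without replicate 1 or 2. Leaving out 1 replicate gave 4 (without replicate 2) to 14 calls.

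At 60 min, 6 of 38 values were higher in replicates 5 and 6 than in 3 and 4: 2 of 10 in the nucleus beside 10.6% of all genes, 2 of 10 in the cytosol beside 20.8%, 2 of 9 in the membrane fraction beside 12.4% and 0 of 9 in whole cells beside 7.44%. No member was lower, beside 9.67% of nuclear, 17.9% of cytosolic, 8.35% of membrane and 9.89% of whole-cell genes. The cytosolic share was at the background. The 6 were Jun and Dusp1 in the nucleus, cytosol and membrane fraction. Dusp1 had 15.7 and 11.9 CPM in the nucleus of replicates 3 and 4 and 20.1 and 21.6 CPM in replicates 5 and 6. It rose by 0.72 ± 0.21, 0.64 ± 0.22 and 0.76 ± 0.20 (edgeR adjusted p = 0.0234, 0.0289 and 0.0118), and each call was lost without replicate 5 and without replicate 6, that of the nucleus also without replicate 4 (0.56) and that of the membrane fraction without replicate 3 (0.64). Of the 6 calls, 2 were left without replicate 5 and 3 without replicate 6. The labels give the same dose to both pairs at 60 min and the methods do not, and the share of reads on no gene differed between the pairs as given above; the part of either was not tested.

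The other early response genes moved both ways between the pairs. At 20 min 1 of 26 was higher and 7 were lower in the cytosol of replicates 3 and 4, beside 18.1% and 21.3% of all genes (median -0.48, against -0.05 over all genes tested), with the growth arrest gene Gadd45g at -2.83, the GTPase gene Rhob at -0.93 and Btg1 at -0.69 among the lower, and the 1 higher was Gadd45b at 0.69. In whole cells 7 were higher and 2 lower, beside 10.4% and 11.9%. At 60 min 7 were higher and 1 lower in the cytosol of replicates 5 and 6, beside 20.8% and 17.9% of all genes. In whole cells 1 was higher and 11 were lower, beside 7.44% and 9.89%, and without replicate 6 there were 1 and 6. The smallest adjusted p among the lower belonged to Myc at -2.19, Csrnp1 at -1.46 and the kinase gene Sgk1 at -1.03, which had -2.06, -1.79 and -1.24 without replicate 6 and were still called. Of 21 regulators, 8 were lower in the nucleus (beside 9.67% of all genes) and 8 in whole cells (beside 9.89%, and 9 without replicate 6) of replicates 5 and 6, and 0 were higher there. Spry4 and Dusp6, feedback inhibitors that ERK signaling is known to induce, were among them in whole cells, at -3.34 (edgeR adjusted p = 4.03e-06) and -1.66 (edgeR adjusted p = 2.92e-05), and had -3.26 and -1.78 without replicate 6 (edgeR adjusted p = 0.000384 and 0.00117). At 20 min Spry4 was higher in whole cells of replicates 3 and 4 than of 1 and 2 (1.61, edgeR adjusted p = 0.00052), as was Dusp6 (1.07, edgeR adjusted p = 0.000751). In the cytosol, where Jun was lower in replicates 3 and 4 at both times, Spry4 and Dusp6 were higher in that pair at 20 min, by 0.69 and 0.67. At 60 min they were at -2.27 and -1.18 in replicates 5 and 6. Of the 21 regulators in the cytosol, 3 were higher and 3 lower at 20 min, beside 18.1% and 21.3% of all genes. The third higher was Mapk8 (0.65), and the lower were Mkl2 (-1.03), Elk4 (-1.06) and Mkl1 (-1.11). At 60 min 2 were higher, Mkl1 and Mkl2, and 5 were lower, beside 20.8% and 17.9%. Whether these changes are linked was not tested.

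The second question was in which fraction the members take the larger part of the reads. Levels are relative to each library, so fewer cells, less RNA per cell and a different size of the fraction cannot be told apart. The strongest difference belonged to Ier3, the member that encodes a membrane protein. Its level was 1.48 to 4.02 CPM in the cytosol, 2.81 to 6.56 in the nucleus and 3.92 to 10.8 in the membrane fraction (medians 2.11, 4.62 and 6.21, n = 16), and both the membrane fraction and the nucleus lay above the cytosol in 16 of 16 cultures. The log2 fold change was 1.66 ± 0.08 for membrane against cytosol and 0.77 ± 0.08 for nucleus against cytosol (edgeR adjusted p = 2.17e-19 and 2.34e-10). Within replicates 1 and 2, 3 and 4, and 5 and 6 the membrane value was 2.18, 1.74 and 1.80 and the nuclear value 0.60, 1.03 and 1.03, and all 6 passed. The membrane check Hspa5 was also higher in the nucleus (median 713 CPM) than in the cytosol (79.9). The part of membrane RNA in the nuclear fraction was not tested.

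Between nucleus and cytosol 4 members differed, 2 of 10 higher in the nucleus beside 38.3% of all genes and 2 of 10 lower beside 28.3%, fewer than in the background. Atf3 was lower in the nucleus, with a median of 6.29 CPM against 9.08 in the cytosol, in 15 of 16 cultures (-0.76 ± 0.11, edgeR adjusted p = 1.24e-07), and passed within each pair (-0.59, -0.84 and -0.52), but with no filter on low counts its size fell under the threshold (-0.48). Ier2 was lower as well, with 129 against 157 CPM in 13 of 16 cultures (-0.55 ± 0.06, edgeR adjusted p = 4.05e-10), but the size fell under the threshold without replicate 2 (-0.31), with the scaling of DESeq2 (-0.44), with no filter on low counts (-0.26), and within replicates 3 and 4 (-0.31) and 5 and 6 (-0.24). Fosb was higher in the nucleus (0.98 ± 0.35, edgeR adjusted p = 0.0104), with 1 to 24 counts a library there and 0 to 13 in the cytosol. With the culture as a block, since the fractions of a culture are paired, Fosb did not pass (0.72, edgeR adjusted p = 0.0531), nor did it without replicate 6 (0.60), and Egr1 passed as lower in the nucleus (-0.56, edgeR adjusted p = 0.00583). The other members, Btg2, Dusp1, Fos, Jun and Junb, had values from -0.41 to 0.10, within the fold threshold.

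Between membrane and cytosol 4 members differed, 1 of 10 higher beside 22.4% of all genes and 3 of 10 lower beside 28.7%, close to the background of this fit. Fos was lower in the membrane fraction (-0.90 ± 0.20, edgeR adjusted p = 0.000141), with medians of 0.867 and 2.00 CPM, in 14 of 16 cultures. The membrane fraction of replicate 4 at 40 min had 1 Fos count, and without replicate 4 it was -0.46 and did not pass. Atf3 (-0.62 ± 0.11, edgeR adjusted p = 6.61e-06) was lower in 16 of 16 cultures and Ier2 (-0.50 ± 0.06, edgeR adjusted p = 3.85e-09) in 15 of 16. Both fell under the fold threshold with the scaling of DESeq2 (-0.46 and -0.34), with no filter on low counts (-0.38 and -0.25) and on leaving out 1 replicate, Ier2 without any of the 6 (-0.34 to -0.30) and Atf3 without any but replicate 2 (-0.47 to -0.40). This scaling moved the median over all genes from 0.12 to 0.22 in the nucleus and from -0.30 to -0.15 in the membrane fraction, and the part of all calls that were higher from 57.5% to 62.3% and from 43.8% to 64.3%. For the membrane fraction the main fit also stood apart from other fits with its own scaling. Leaving out any 1 replicate gave a median of -0.15 to -0.10, with 63.4% to 68.7% of calls higher. All 18 libraries per fraction gave -0.13 and 65.9%. Relative to the median of all genes, the membrane values were 1.97 for Ier3, -0.59 for Fos, -0.32 for Atf3 and -0.20 for Ier2, and the nuclear values were 0.66 for Ier3, 0.86 for Fosb, -0.88 for Atf3 and -0.66 for Ier2.

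**Figure D3:**
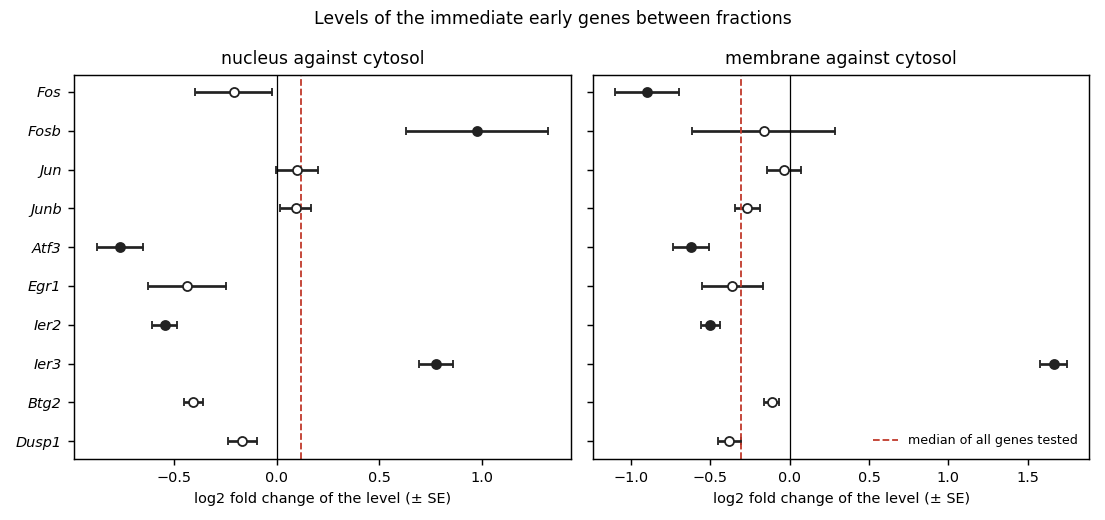
Log2 fold change (± SE) of the level of each member between the nucleus and the cytosol and between the membrane fraction and the cytosol, over 16 cultures, with filled points for values that passed the test and a dashed line at the median of all genes tested. Ier3 lies to the right in both panels, at 0.77 and 1.66, and Atf3 to the left, at -0.76 and -0.62.

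Among the other early response genes, 2 of 26 were higher and 5 lower in the nucleus than in the cytosol, beside 38.3% and 28.3% of all genes, and 2 and 5 in the membrane fraction, beside 22.4% and 28.7%. The higher 2 were in both cases Cyr61 and Ctgf, which encode secreted matricellular proteins, at 4.26 and 3.62 in the membrane fraction and 2.65 and 2.55 in the nucleus. The regulators had 2 of 21 higher and 8 lower in the nucleus and 0 higher and 10 lower in the membrane fraction, among the lower Atf1, the partner of CREB (-1.82 and -1.03).

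The order of nucleus and cytosol for Jun turned between replicate pairs that were labeled for different times. In replicates 1 and 2 the cytosol had the higher Jun level of nucleus and cytosol in all 6 cultures (log2 ratio of CPM -0.34 ± 0.19, SD, n = 6), and in replicates 3 and 4 the nucleus had it in all 6 (1.29 ± 0.69). At the shared time of 20 min the difference between the pairs was 1.03 ± 0.42 and did not pass (edgeR adjusted p = 0.0614, beside 28.0% of all genes), and that of the membrane fraction was 1.04 ± 0.42 (edgeR adjusted p = 0.282, beside 0.316%). At 60 min 28.5% of all genes passed for the nucleus and 1.47% for the membrane fraction. No member passed in any of these 4 tests of level.

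The third question was how much of the RNA of each member was new. The share of new to total mRNA is the fraction of T positions read as C, divided by the conversion rate of the library, and a share of 1 means that all RNA was made during labeling. It was tested for the 6 members with at least 400 T positions read in every library used, Ier2, Btg2, Dusp1, Junb, Atf3 and Ier3. Fos and Jun passed this minimum in some fractions, and Fosb and Egr1 in none. Ier2 had shares of 0.184 and 0.148 in the cytosol at 15 min and 0.221 to 0.241 in the 4 cultures at 20 min. At 60 min they were 0.719 and 0.621 in replicates 3 and 4 and 0.877 and 0.794 in replicates 5 and 6, and at 120 min 0.959 and 0.961. The median over all genes in the cytosol was 0.0201 and 0.0248 at 20 min in replicates 1 and 2 and in 3 and 4, and 0.369 at 120 min.

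Dusp1, the phosphatase gene, had a cytosolic share of 0.325, 0.266, 0.222 and 0.154 in replicates 1 to 4 at 20 min, above Ier2 in replicates 1 and 2, level with it in replicate 3 and below it in replicate 4. It had 0.755 to 1.10 at 60 min, and 1.02 and 1.11 at 120 min, which is complete within the error of the measure. Btg2 had 0.122 to 0.224 at 20 min, 0.450 and 0.458 in replicates 3 and 4 and 0.683 and 0.608 in replicates 5 and 6 at 60 min, and 1.00 and 0.995 at 120 min. Ier3 and Junb were at 0.858 to 1.14 and 0.734 to 0.940 at 60 min. Among all genes, the cytosolic share of Dusp1 lay between percentiles 97.5 and 99.5 and that of Btg2 between 93.6 and 98.5. In the nucleus the ranges were 96.9 to 99.6 for Dusp1 and 73.3 to 97.2 for Btg2. Shares at 60 min were higher in replicates 5 and 6 than in 3 and 4 over all genes too (cytosolic medians 0.193 and 0.0930), where the conversion rates were 2.48% and 6.70%.

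**Figure D4:**
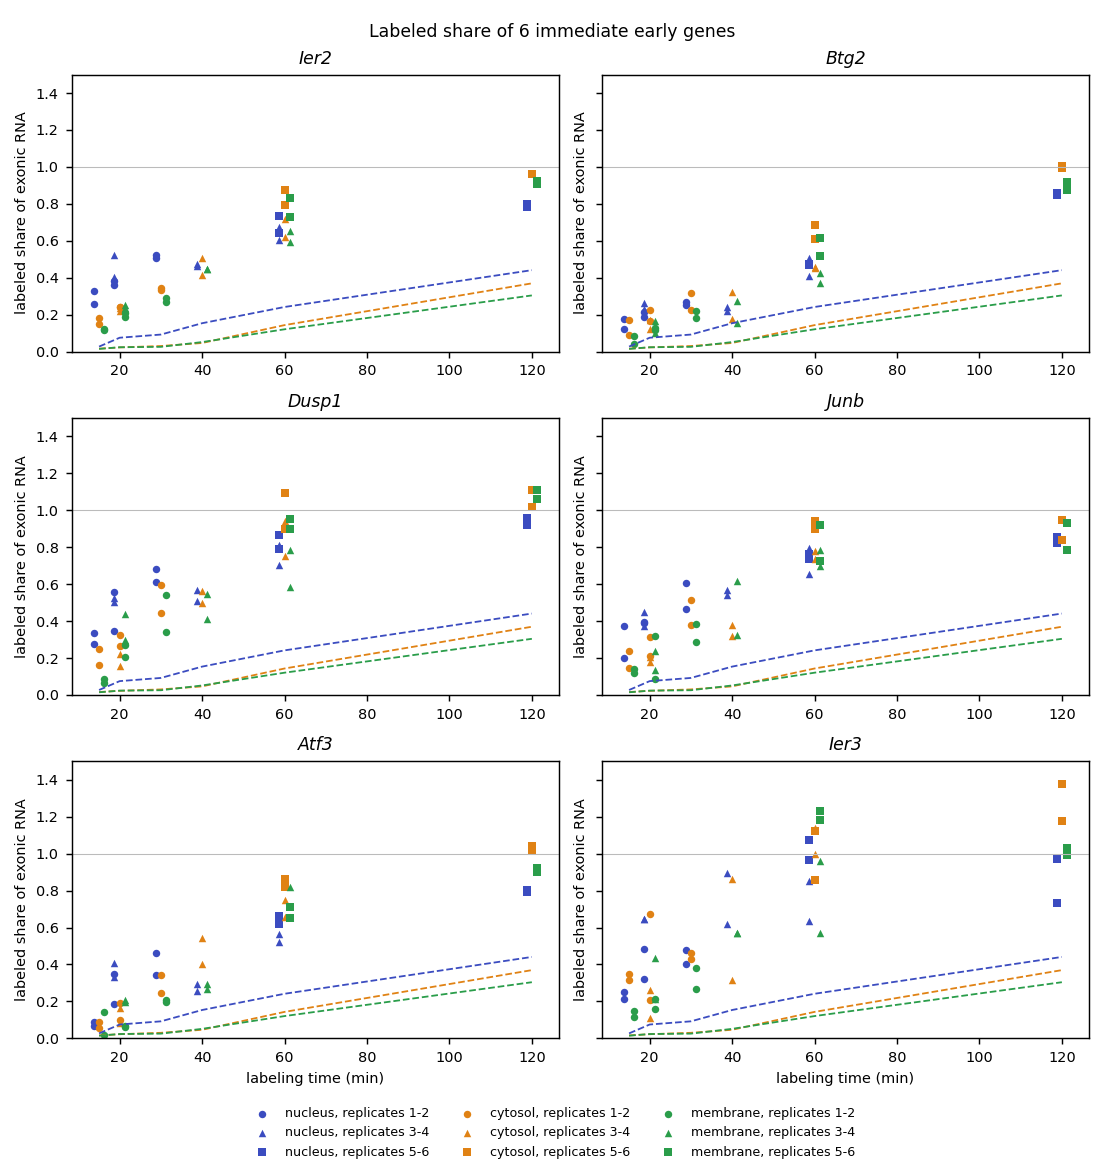
Share of new to total exonic RNA (vertical axis) against labeling time in min for Ier2, Btg2, Dusp1, Junb, Atf3 and Ier3, with 1 point a library, colors for the fractions, markers for the replicate pairs and dashed lines for the medians over all genes. The member points reach 0.734 to 1.38 at 120 min in the nucleus, cytosol and membrane fraction, while the medians stay at 0.304 to 0.441.

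For most genes the share was higher in the nucleus than in the cytosol. The log2 difference of the share between nucleus and cytosol had a median of 0.88 over 11646 genes (10th to 90th percentile 0.21 to 1.40). It was 0.34 ± 0.13 for Junb (limma adjusted p = 0.0196), 0.30 ± 0.05 for Ier2 (limma adjusted p = 4.84e-06) and 0.29 ± 0.09 for Dusp1 (limma adjusted p = 0.00389), and 0.14 ± 0.16 for Atf3, 0.11 ± 0.15 for Ier3 and 0.03 ± 0.11 for Btg2, which did not pass. These are percentiles 5.89 to 14.1 of all genes, and 3 of 6 members were higher in the nucleus and 0 lower, beside 83.8% and 2.06% of all genes. Member shares came near 1 at 60 and 120 min in both fractions, where the log2 difference has little room, and the members were not tested against other genes. With the culture as a block Dusp1 did not pass (limma adjusted p = 0.0852), nor did it without replicate 2 (0.18), and Junb did not pass without replicate 3 (0.31), 5 or 6 (0.34).

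The nuclear values were the higher ones at the short labeling times. At 15 min Ier2 had 0.328 and 0.256 in the nucleus against 0.184 and 0.148 in the cytosol, and at 20 min Dusp1 had 0.349, 0.560, 0.527 and 0.501 in the nucleus of replicates 1 to 4, above the cytosol of each culture. At 120 min the order was turned: Ier2 had 0.799 and 0.785 in the nucleus and 0.959 and 0.961 in the cytosol, and Dusp1 had 0.961 and 0.918 against 1.02 and 1.11. Within replicates 5 and 6, which were labeled for 60 and 120 min alone, Atf3 (-0.38), Btg2 (-0.33) and Ier2 (-0.27) were lower in the nucleus and passed, and Dusp1 (-0.22) and Junb (-0.19) had the same sign without passing (limma). At the times that pairs share, 0 of 6 members passed a test of this difference between pairs (limma). The value nearest to passing was Ier3 at 1.80 ± 0.61 at 20 min (limma adjusted p = 0.0544), beside 10.2% of all genes. Dusp1 had 0.85 ± 0.36 (limma adjusted p = 0.106) and Ier2 0.37 ± 0.20 (limma adjusted p = 0.199) there. For the membrane fraction against the cytosol at 20 min the nearest was Dusp1 at 1.24 ± 0.36 (limma adjusted p = 0.0775). The other 3 of these tests passed for 1.19% of genes (membrane fraction, 20 min), 15.5% (nucleus, 60 min) and 0.00859% (membrane fraction, 60 min).

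Between membrane and cytosol, 2 of 6 members had the lower share in the membrane fraction and 0 the higher, beside 13.0% and 8.69% of all genes. Btg2 had -0.37 ± 0.11 (limma adjusted p = 0.0139), with 0.115, 0.125, 0.0989 and 0.165 in the membrane fraction at 20 min against 0.224, 0.167, 0.169 and 0.122 in the cytosol, and the cytosol was higher in 15 of 16 cultures. Ier2 had -0.15 ± 0.05 (limma adjusted p = 0.0315) and did not pass with the culture as a block (limma adjusted p = 0.517), where Btg2 did (limma adjusted p = 0.0303). Btg2 did not pass without replicate 3 (-0.28), 5 (-0.37) or 6 (-0.36), and Ier2 passed only without replicate 2. The median over all genes was -0.01.

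Introns report on unspliced RNA, and 2 members had enough intronic T positions in every nuclear library to be tested, Dusp1 and Atf3. The intronic share of Dusp1 was 0.698 and 0.995 at 15 min and 0.934 to 1.20 at 20 min, when the exonic share was 0.349 to 0.560. That of Atf3 was 0.266 and 0.351 at 15 min, 0.515 to 0.926 at 20 min and 0.889 and 0.913 at 30 min. The unspliced RNA of both genes was thus almost all new within 30 min, and Dusp1 reached this in the shorter time. Intronic shares exceeded exonic ones by 0.84 ± 0.10 for Dusp1 (limma adjusted p = 4.48e-08) and 1.18 ± 0.11 for Atf3 (limma adjusted p = 2.17e-09) on the log2 scale, below the median of 1.81 over 11256 genes, of which 96.9% were higher in introns and 0.213% lower. Within replicates 5 and 6, labeled for 60 and 120 min, Dusp1 had 0.04 and did not pass (limma adjusted p = 0.824), and Atf3 had 0.44 and passed. Dusp1 spans 56539 bases in the annotation and overlaps Ergic1 on the other strand, and Atf3 overlaps the small gene Gm24748, so intronic reads may include those of a neighbor.

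The turnover was put in a single number, the apparent half-life, from a fit of the share to 1 - exp(-k(t - 5 min)), with the delay of 5 min that the study used. It mixes decay with export out of a fraction, and it is given without a test. In the nucleus the 8 members with enough T positions had a median of 27.7 min against 136 min over 13022 genes. The cytosolic median was 31.3 min (7 members) against 214 min, that of the membrane fraction 37.4 min (7 members) against 258 min and that of whole cells 37.2 min (8 members) against 212 min, or 37.1 min against 209 min without replicate 6. Within replicates 5 and 6, which have no labeling time under 60 min, the cytosolic median of the members was 18.1 min. Half-lives under 30 min were found for 5, 3, 2 and 3 members in this order of fractions and for 1.89%, 0.876%, 0.870% and 0.805% of all genes. Without replicate 6 there were 3 members in whole cells as well.

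Fos was the shortest-lived in the cytosol and whole cells at 14.5 and 20.1 min and had 23.7 min in the nucleus. Ier3 had 18.9, 20.4, 25.2 and 26.5 min in nucleus, cytosol, membrane fraction and whole cells, and Dusp1 had 20.7, 24.5, 28.3 and 28.6 min. Fos and Dusp1 hold the nonamer printed above and Ier3 had the most pentamers per kb of 3′ UTR, and whether half-life goes with these elements was not tested. Junb (25.6, 31.3, 34.2 and 34.8 min) and Ier2 (29.7, 33.2, 37.4 and 39.6 min) came next. Jun had 39.2, 43.7 and 45.7 min in nucleus, membrane fraction and whole cells, and Atf3 had 43.8, 34.9, 43.9 and 43.5 min. Without replicate 6 the whole-cell values were 20.1 min for Fos, 27.4 for Ier3, 28.8 for Dusp1, 35.3 for Junb, 38.99 for Ier2, 43.7 for Jun and 44.8 for Atf3, with the order of the last 2 turned.

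Btg2 was the longest-lived member in every fraction, at 56.4, 48.0, 59.2 and 61.1 min (62.6 min in whole cells without replicate 6). The SD between fits to single replicates was 9.19 to 23.98 min for Btg2 (n = 6), 3.96 to 11.7 min for Ier2 and 3.39 to 11.9 min for Dusp1. Btg2 and Dusp1 were apart by more than these SDs in the nucleus and whole cells, whereas neighbors in the order were not. Some single-replicate fits of Fos, Ier3 and Dusp1 ended at or near the lower bound of 1 min, so the short end is poorly resolved. The fit assumes a constant level, which Btg2 did not have. Its 120 min libraries of replicates 3 and 4 were not in the fit, but those of replicates 5 and 6, which lay above 60 min in nucleus and cytosol, were, and the effect on its half-life was not tested.

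**Figure D5:**
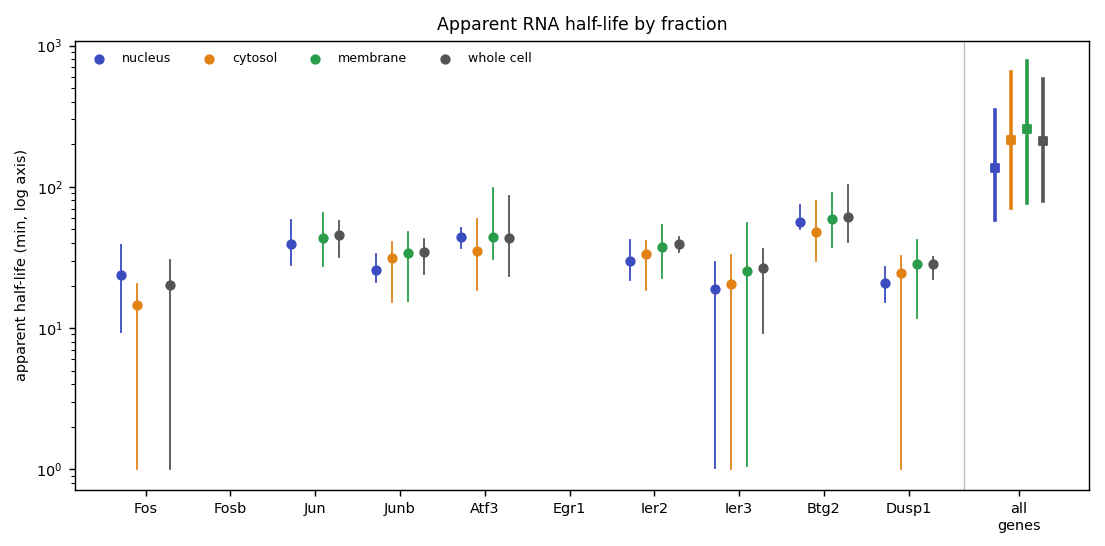
Apparent half-life in min (log axis) of the members in each fraction, with points for the fit to all replicates and lines from the lowest to the highest single-replicate fit, beside the median and the 10th to 90th percentile of all genes. The members lie between 14.5 and 61.1 min and the medians of all genes between 136 and 258 min.

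The other early response genes shared the short half-lives, with medians of 42.9 min in whole cells (22 of 28 genes) and 34.3 min (22), 38.2 min (21) and 45.3 min (22) in nucleus, cytosol and membrane fraction. Zfp36, which encodes a protein that binds AU-rich elements and speeds decay, had 20.5, 16.5, 19.3 and 19.8 min, and Jund, the AP-1 gene known for steady expression, had 106, 120, 134 and 124 min. The 21 regulators had medians of 126, 162, 166 and 159 min, between the members and all genes. Without replicate 6 the whole-cell medians were 44.4 min for the early response genes and 163 min for the regulators, with 19.3 min for Zfp36 and 123 min for Jund.

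Promoters were read for the 8 members found in the RefSeq table of GRCm38.p6, from 250 bases before to 50 bases after the start, since members changed in level between cultures. A full cyclic AMP response element, TGACGTCA (both strands), was present in 2 of the 8, Btg2 and Dusp1, and in 1.79% of 32851 promoters. It was in 0 of the other 6 windows, among them those of Jun, Ier3, Fosb and Atf3, which changed in level as well. No promoter was read for Egr1, which also changed, or for Ier2. Whether level goes with the element was not tested. Each line shows 30 bases with the element in capitals.
Btg2, chr1:134079303-134079332, minus strand: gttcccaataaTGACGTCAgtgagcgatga
Dusp1, chr17:26508597-26508626, minus strand: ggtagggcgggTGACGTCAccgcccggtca
The element lay at positions -166 to -159 from the start in Btg2 and -143 to -136 in Dusp1. The sequence TATAAA (sense strand) was in Fos and Junb and in 8.32% of promoters. A CArG box and the AP-1 site, TGAGTCA or TGACTCA (both strands), were each in 0 of the 8 windows and in 1.63% and 5.20% of promoters, which says only that these letters are not in these windows.

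Over the 18 whole-cell libraries, the genes whose log2 CPM followed the mean of the standardized levels of 9 members most closely were Bcan (Pearson r = 0.785), Jund (0.782), Camk2n2 (0.781), Tfeb (0.773) and Arhgef39 (0.758). Among the members themselves the pairs were split: Junb and Ier2 had r of 0.69 and Ier3 and Dusp1 0.66, while Btg2 had -0.77 with Ier3 and -0.71 with Dusp1. The 18 points share cultures, replicate pairs and labeling times, so these values are a description.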

How the data were processed

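RNA was measured by SLAM-seq in 72 libraries of E14TG2a cells, grouped by fraction, labeling time and replicate pair from the sample titles. The authors made read counts per gene with STAR 2.7.6 and HTSeq 0.11.1 on GRCm38, listed with RSEM 1.3.3 in the submitters' processing notes. They also deposited, per gene, counts of T positions and of T-to-C conversions in exons and introns, and a conversion rate per library as a fraction from a binomial mixture model. The library kit was stranded and poly(A) selected, with paired reads. The files also hold, per gene, a ratio of conversions to T positions that the authors computed in exons and in introns. No background was subtracted from the shares, so a share may exceed 1.

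Counts were tested with edgeR 4.0.16 (R 4.3.3; TMM, filterByExpr, quasi-likelihood test, Benjamini-Hochberg adjustment over all genes), with each fraction fitted alone for time and pair and the 3 fractions together for location; a call needed an adjusted p under 0.05 and a log2 fold change beyond 0.5. Labeled shares (conversions over T positions over the conversion rate) were tested with limma 3.58.1 on log2(share + 0.01), for genes with at least 400 T positions in exons or 100 in introns in every library, which understates differences of low shares. Half-lives were fitted by least squares with a delay of 5 min in Python 3.11.15 (numpy 2.4.6, pandas 2.3.3, scipy 1.17.1). Depth was 13185351 to 52975732 counts a library. Each step was tested on simulated data. Alternatives were DESeq2 1.42.0 and its size factors, no filter, other minimums and pseudocounts, a replicate block, all 18 libraries per fraction, fits within a pair and leaving out each replicate. The tests of differences between pairs at a shared time were added after values were seen. All 10 members are named in each result; of the 2 lists, up to 3 called genes in each direction with the smallest adjusted p were named per comparison and fraction where given. Members and lists were chosen with earlier results of these data known. The fractions of a culture are paired since they come from the same cells. The main tests between fractions did not use this pairing, and the culture was a block only in the alternative with a replicate block. Replicates are separately passaged cultures of 1 line, and 2 libraries of a group were never within sampling noise of each other (chi-square per degree of freedom 4.57 to 275). Symbols were matched for 51633 of 51826 genes. Length-normalized levels were counts per kb of exon scaled to the same total in every library, and CPM were counts scaled by the sum of a library's gene counts.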

Additional observations from a re-analysis of the deposited data

Results flagged for a closer look

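The following values were singled out because every culture of 1 replicate pair lay on 1 side and every culture of another pair on the other, in the log2 ratio of a fraction over the cytosol of the same culture. The pairs differ in labeling times, and the difference over all times was not tested.

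The level of Jun in the nucleus against the cytosol was -0.34 ± 0.19 (SD, n = 6) in replicates 1 and 2 and 1.29 ± 0.69 (n = 6) in replicates 3 and 4, a difference of 1.63. At the shared time of 20 min the same difference was 1.03 ± 0.42 (edgeR adjusted p = 0.0614). In the membrane fraction against the cytosol Jun had -0.79 ± 0.22 in replicates 1 and 2 and 0.65 ± 0.43 in replicates 3 and 4, a difference of 1.45. Replicates 5 and 6 had -0.45 ± 0.06 (n = 4), which is -1.10 against replicates 3 and 4, and at the shared time of 60 min the difference was -0.69 ± 0.42 (edgeR adjusted p = 0.369). Cytosolic Jun counts in replicates 3 and 4 were 16 to 68 a library.

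The share of new to total mRNA of Ier2 in the nucleus against the cytosol was 0.68 ± 0.11 (n = 6) in replicates 1 and 2, labeled for up to 30 min, and -0.28 ± 0.02 (n = 4) in replicates 5 and 6, labeled for 60 and 120 min, a difference of -0.96. That of Dusp1 was 0.51 ± 0.40 and -0.22 ± 0.11, a difference of -0.73. These pairs share no labeling time.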

How the results depend on the processing

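Of the counts of calls and half-life medians, 138 values under an alternative were close to the reported one, 32 moved and 1 turned its direction; where no value below shows it, the cause was not tested. Without a filter on low counts, 5 values differed between 20 and 120 min in place of 3, 2 members between nucleus and cytosol in place of 4 (Atf3 and Ier2 were lost), and 2 between membrane and cytosol in place of 4. For membrane against cytosol, 2 were also called by DESeq2, with its size factors in edgeR, over all 18 libraries per fraction and within replicates 5 and 6; within that pair 2 were called between nucleus and cytosol. Leaving out 1 replicate gave 4 to 14 calls between pairs at 20 min (13 with all), 2 to 7 at 60 min (6 with all), 1 to 3 for membrane against cytosol, and 0 to 4 for the share in the membrane fraction (2 with all); in comparisons of pairs this leaves 1 library against 2, which is assumed to vary like the other groups. For that share, 1 member was called with the replicate block, 1 within replicates 1 and 2, 0 within replicates 3 and 4 (limma) and 1 within replicates 5 and 6. Within replicates 5 and 6 the share in the nucleus against the cytosol gave 3 calls, Atf3, Btg2 and Ier2, all lower in the nucleus; of the 3 members that were higher with all replicates, Ier2 had -0.27 and Dusp1 and Junb had -0.22 and -0.19, which did not pass. For introns against exons 1 member, Atf3, was called in that pair. The median half-lives of that pair, which has no labeling time under 60 min, were 34.7, 18.1, 25.6 and 26.6 min in the nucleus, cytosol, membrane fraction and whole cells, against 27.7, 31.3, 37.4 and 37.2 min with all replicates.

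For the comparisons of time and pair the replicate number was no block, since same-numbered libraries of different times did not deviate together in every fraction (r from -0.06 to 0.40 in replicates 3 and 4, 0.06 to 0.12 in 5 and 6, 0.01 to 0.37 in 1 and 2). With the replicate block 4 values were called between 20 and 120 min, 14 between pairs at 20 min and 7 at 60 min, and 0 in the other comparisons of time (edgeR). Fos, Egr1 and Fosb, with 0 to 91 counts a library, are limited by depth.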
